A study of Mus musculus with 7 samples.

Results

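Slco genes encode the organic anion transporting polypeptides, membrane carriers that bring amphipathic organic anions into cells. The 8 members described here are Slco1a1, Slco1a4, Slco1a6, Slco2a1, Slco2b1, Slco3a1, Slco4a1 and Slco4c1, taken by gene name from the 22053 rows of a table of protein-coding genes in mouse kidney cortex. The BPS-TA group held 4 kidneys (TC-7, TC-8, TC-11, TC-12), whose prefix was read as the triple cross of the labels, and the WT group 3 kidneys (WT-5, WT-6 and WT-7). BPS-TA mice carry ggt-tTA, the TRACK transgene ggt-HIF1A-M3 for a constitutively active HIF1A, and BPS, a tTA-driven Cas9 nickase with paired guides to Bap1, Pbrm1 and Setd2, each on both alleles by the study's methods. A truncated ggt promoter limits the tTA and the HIF1A mutant largely to the proximal tubule, whereas whole cortex was sequenced, and the BPS allele derives from 1 clone of embryonic stem cells. WT mice carry none of these alleles. Both groups are labelled C57BL/6 and were kept on regular chow. The age is written as 10 with both months and weeks after it, so it is not clear. The value columns do not say which mouse each kidney came from, and p-values would be too small if kidneys shared a mouse.

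Organic anion transporting polypeptides carry bile acids, conjugated steroids, thyroid hormones, prostaglandins and drugs such as digoxin, usually without direct use of ATP. In the kidney they work beside the Slc22 carriers, which bring organic ions into tubule cells, and the ABC pumps, which export them. Proximal tubules of the mouse are rich in several Slco1a proteins, and Slco1a1 transcript in mouse kidney is known to depend on androgens.

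Expression is given as FPKM, fragments scaled to transcript length and to the mapped reads of the library, a unit inferred from the values. Total FPKM per kidney ranged between 1473813 and 1808843, and the number of reads is unknown. The limma test took log2(FPKM + 1) of the 12036 genes that reached 1 FPKM in 3 or more kidneys. Adjusted p-values are over all of these, with 0.05 as the threshold. Values per kidney run in the order in which the kidneys are named above. All 8 members passed this filter, and 7 of them had at least 1 FPKM in every kidney. The exception, Slco1a4, was under 1 FPKM in every WT kidney and passed only through the BPS-TA kidneys. Of the members, 2 were called higher in BPS-TA kidneys (Slco1a4 and Slco4a1), where 28.5% of all tested genes were, and 3 were called lower (Slco1a6, Slco3a1 and Slco4c1), where 6.56% of all tested genes were. The groups did not overlap for the same 5 members, against 43.9% of all tested genes. BPS-TA kidneys lay below for 3 of them, against 8.87% of all tested genes, and above for 2, against 4212 of the 12036 genes. These background shares depend on the scaling, while the numbers of members called lower and lying below did not. Members called higher numbered 1 after quantile normalization and 2 after median centring. After quantile normalization and after median centring 14.3% and 20.6% of all tested genes were called lower, 11.8% and 12.6% were called higher, and BPS-TA kidneys lay below all WT kidneys for 22.5% and 27.2%, with 3 members in each of the lower counts. The median log2 fold change was 0.25 over the members and 0.12 over all tested genes, and the median of all genes is subtracted wherever a relative value is given. In bulk tissue, fewer cells of a type and less RNA per cell cannot be told apart.

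**Figure D1:**
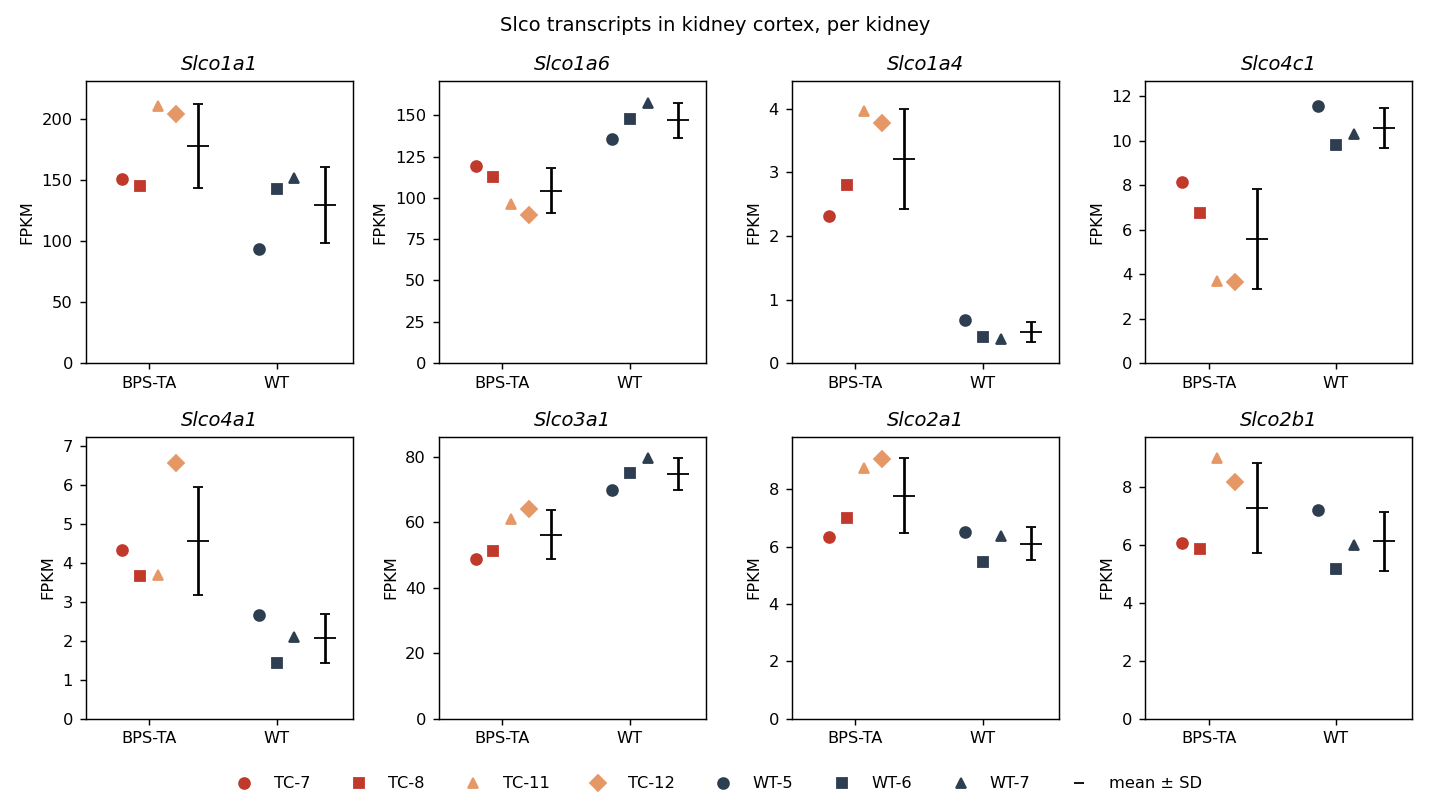
FPKM of the 8 Slco transcripts in each kidney, with BPS-TA kidneys left and WT kidneys right in every panel and a bar for the mean with its SD (n = 4 and n = 3). All BPS-TA kidneys lie above all WT kidneys for Slco1a4 and Slco4a1 and below them for Slco1a6, Slco3a1 and Slco4c1.

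Promoter sequence was found for 7 of the 8 members, with Slco3a1 the exception, in 10 windows of the RefSeq table (build GRCm38.p6). The 250 bases before the transcription start are printed for 5 members, 3 neighbours on chromosome 6 and both Slco4 genes, because their CpG content differs widely and 4 of them were called, in both directions. They are read 5′ to 3′ along the gene, with every CG dinucleotide in capitals.
Slco1a1 (chr6:141946963-141947212, minus strand): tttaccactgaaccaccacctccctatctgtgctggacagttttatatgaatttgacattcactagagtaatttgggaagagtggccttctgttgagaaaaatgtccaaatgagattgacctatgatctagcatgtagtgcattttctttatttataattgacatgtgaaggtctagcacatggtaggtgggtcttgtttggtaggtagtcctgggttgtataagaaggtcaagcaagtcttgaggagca
Slco1a4 (chr6:141856221-141856470, minus strand): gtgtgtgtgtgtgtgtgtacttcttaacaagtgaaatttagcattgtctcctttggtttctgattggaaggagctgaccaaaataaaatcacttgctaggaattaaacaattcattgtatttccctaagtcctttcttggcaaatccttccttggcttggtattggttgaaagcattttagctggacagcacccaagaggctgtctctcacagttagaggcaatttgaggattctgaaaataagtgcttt
Slco1a6 (chr6:142186150-142186399, minus strand): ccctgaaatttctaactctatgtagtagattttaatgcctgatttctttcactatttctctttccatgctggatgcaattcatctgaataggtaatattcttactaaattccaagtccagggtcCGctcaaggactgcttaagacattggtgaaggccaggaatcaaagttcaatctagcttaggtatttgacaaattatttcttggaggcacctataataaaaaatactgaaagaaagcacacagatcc
Slco4c1 (chr1:96872172-96872421, minus strand): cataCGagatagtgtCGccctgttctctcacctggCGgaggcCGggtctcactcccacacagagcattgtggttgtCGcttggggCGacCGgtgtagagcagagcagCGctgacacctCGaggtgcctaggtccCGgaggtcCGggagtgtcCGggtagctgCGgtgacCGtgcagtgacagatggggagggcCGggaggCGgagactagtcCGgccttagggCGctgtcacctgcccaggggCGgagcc
Slco4a1 (chr2:180455995-180456244, plus strand): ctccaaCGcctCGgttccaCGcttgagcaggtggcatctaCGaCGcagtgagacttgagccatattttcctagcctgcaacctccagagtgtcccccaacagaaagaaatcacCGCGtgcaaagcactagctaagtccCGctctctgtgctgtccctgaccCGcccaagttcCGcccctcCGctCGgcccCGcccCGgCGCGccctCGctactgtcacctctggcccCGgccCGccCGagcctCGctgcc
The windows of Slco1a1 and Slco1a4 held 0 CG dinucleotides and that of Slco1a6 held 1, whereas those of Slco4c1 and Slco4a1 held 19 and 21. A second window of Slco4a1, at a later start, held 4. Over 32851 promoters of the table the median was 6, with quartiles of 2 and 16. The core letters of a HIF-binding site, ACGTG or GCGTG on either strand, were looked for in windows of 300 bases that also take in 50 bases after the start. They were present in 43.8% of all promoters and in 3 of the 10 windows of members, which belong to 2 of the 7 members. Slco4a1 held GCGTG 233 and 136 bases before its start, and also 135 and 123 bases before that second start. Slco2a1 held ACGTG 10 bases after its start. A match of these letters is a description and not a site of binding.

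The Slco1a genes lie side by side on chromosome 6, and their calls differed, with Slco1a4 higher, Slco1a6 lower and Slco1a1 not called. Slco1a1 (ENSMUSG00000041698) encodes a carrier of bile acids and steroid conjugates at the apical membrane of the proximal tubule. It stood at 151, 145, 211 and 204 FPKM in the BPS-TA kidneys, against 94.0, 143 and 152 FPKM in the WT kidneys. TC-7 and TC-8 lay within the range of the WT kidneys, and TC-11 and TC-12 above it. The means were 178 ± 34.6 FPKM in BPS-TA kidneys (SD, n = 4) and 130 ± 31.2 FPKM in WT kidneys (SD, n = 3), a ratio of 1.37. The log2 fold change of 0.47 (95% interval 0.013 to 0.92) did not pass the test, with an adjusted p of 0.10 by limma. All intervals given here are for single genes and are not adjusted for the number of genes, so they can exclude 0 without a call.

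Slco1a6 (ENSMUSG00000079262) encodes a kidney-expressed carrier whose substrates are poorly known. It fell to 119, 113, 96.0 and 89.6 FPKM in the BPS-TA kidneys, against 136, 148 and 157 FPKM in the WT kidneys. Every BPS-TA kidney lay below every WT kidney, and TC-11 and TC-12 were lowest. The means were 104 ± 13.8 FPKM in BPS-TA kidneys (SD, n = 4) and 147 ± 10.8 FPKM in WT kidneys (SD, n = 3), a ratio of 0.711. Its log2 fold change was -0.50 (standard error 0.10, adjusted p = 0.0085 by limma), or -0.62 relative to the median of all genes. This call was kept under all 15 alternatives run. Of the 51-base words in Slco1a6 transcripts, the length of the reads, 6.27% also occur in other genes, and 2.87% occur in Gm6614, a gene model of the same cluster.

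Slco1a4 (ENSMUSG00000030237) encodes a carrier of digoxin and bile acids known from liver and from endothelium of the blood-brain barrier. It rose to 2.31, 2.81, 3.96 and 3.78 FPKM in the BPS-TA kidneys, against 0.677, 0.412 and 0.382 FPKM in the WT kidneys. The lowest BPS-TA kidney was over 3 times the highest WT kidney. The means were 3.21 ± 0.788 FPKM in BPS-TA kidneys (SD, n = 4) and 0.490 ± 0.162 FPKM in WT kidneys (SD, n = 3), a ratio of 6.56. On the log2(FPKM + 1) scale, which understates the change of so low a gene, the fold change was 1.49 (standard error 0.16, adjusted p = 4.44e-04 by limma). With a pseudocount of 0.1 it was 2.49. An exact two-sided permutation test gave p = 0.0286, the smallest that the 35 splits of 4 and 3 kidneys allow. Its log2 fold change was the 111th largest of all tested genes. Gm6614 (ENSMUSG00000079263), the gene model between Slco1a1 and Slco1a6, had 1.78 ± 0.132 FPKM in BPS-TA kidneys (SD, n = 4) and 0.413 ± 0.112 FPKM in WT kidneys (SD, n = 3), with a log2 fold change of 0.98 and an adjusted p of 2.06e-04 by limma. Of the 51-base words of Slco1a4, 98 of 6407 also occur in other genes, and 82 of the 5322 words of Slco1a1, a far more abundant transcript, occur in Slco1a4. Gm6614 shares 4.37% of its words with Slco1a6. How reads from such words were assigned is not known. Gm6614 too passed the filter only through BPS-TA kidneys, and it was looked up after the values had been seen.

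Several of these genes are also expressed in liver, and TC-8 stood apart in liver transcripts. A list of 10 liver genes chosen after the values had been seen summed to 314 FPKM in TC-8, against 8.25 to 16.0 FPKM in the other BPS-TA kidneys and 9.18 to 37.5 FPKM in WT kidneys. Without TC-8 the log2 fold changes were 1.53 for Slco1a4 (adjusted p = 0.0013 by limma), 0.56 for Slco1a1 (adjusted p = 0.0722) and 0.29 for Slco2b1 (adjusted p = 0.189). Each was larger than in the fit of all kidneys. Each was also larger without TC-7, whose sum of liver genes lay within the range of WT kidneys. Whether liver RNA has a part in the values of these members was not tested.

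The Slco4 genes moved in opposite directions. Slco4c1 (ENSMUSG00000040693) encodes a basolateral carrier of digoxin and thyroid hormone, known from the proximal tubule of human and rat. It fell to 8.14, 6.75, 3.70 and 3.66 FPKM in the BPS-TA kidneys, against 11.5, 9.81 and 10.3 FPKM in the WT kidneys. All BPS-TA kidneys lay below the WT kidneys, and TC-11 and TC-12 stood at 0.494 times the mean of TC-7 and TC-8. The means were 5.56 ± 2.25 FPKM in BPS-TA kidneys (SD, n = 4) and 10.5 ± 0.899 FPKM in WT kidneys (SD, n = 3), a ratio of 0.527. Its log2 fold change, -0.88 with a standard error of 0.24 (adjusted p = 0.0247 by limma), was the 73rd lowest of all tested genes. The call was lost when TC-11, TC-12 or any of the WT kidneys was left out, with adjusted p between 0.0507 and 0.0727, while the log2 fold change stayed between -0.92 and -0.73 in these fits.

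Slco4a1 (ENSMUSG00000038963) encodes a widely expressed carrier of thyroid hormone and taurocholate. It rose to 4.34, 3.66, 3.68 and 6.58 FPKM in the BPS-TA kidneys, against 2.66, 1.42 and 2.10 FPKM in the WT kidneys. The groups did not overlap, and TC-12 was the highest. The means were 4.57 ± 1.38 FPKM in BPS-TA kidneys (SD, n = 4) and 2.06 ± 0.619 FPKM in WT kidneys (SD, n = 3), a ratio of 2.22. The log2 fold change was 0.85 (standard error 0.20, adjusted p = 0.0132 by limma). After quantile normalization it was 0.58 with an adjusted p of 0.0596, past the threshold no longer. Slco4c1 over Slco4a1, a ratio of FPKM within each kidney, was 1.88, 1.84, 1.01 and 0.556 in the BPS-TA kidneys, against 4.35, 6.90 and 4.89 in the WT kidneys.

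Slco3a1 (ENSMUSG00000025790) encodes a widely expressed carrier of prostaglandins and thyroxine. It fell to 48.6, 51.3, 61.0 and 64.1 FPKM in the BPS-TA kidneys, against 69.8, 75.0 and 79.7 FPKM in the WT kidneys. Every BPS-TA kidney lay below every WT kidney, and the lowest were TC-7 and TC-8. The means were 56.3 ± 7.43 FPKM in BPS-TA kidneys (SD, n = 4) and 74.8 ± 4.94 FPKM in WT kidneys (SD, n = 3), a ratio of 0.752. The log2 fold change was -0.41 (standard error 0.10, adjusted p = 0.0164 by limma). The adjusted p was 0.0524 without WT-6 and 0.0653 without WT-7.

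Neither Slco2 gene passed the test. Slco2a1 (ENSMUSG00000032548), the prostaglandin transporter gene of endothelium and collecting duct, stood at 6.35, 6.98, 8.74 and 9.05 FPKM in the BPS-TA kidneys, against 6.50, 5.45 and 6.37 FPKM in the WT kidneys. TC-7 fell within the WT range and the other BPS-TA kidneys above it. The means were 7.78 ± 1.32 FPKM in BPS-TA kidneys (SD, n = 4) and 6.11 ± 0.574 FPKM in WT kidneys (SD, n = 3), with a log2 fold change of 0.30 (95% interval 0.013 to 0.58) and an adjusted p of 0.0965 by limma. It was called without TC-7, where the adjusted p was 0.0391. Slco2b1 (ENSMUSG00000030737), which encodes a carrier of steroid sulfates, stood at 6.05, 5.85, 8.99 and 8.16 FPKM in the BPS-TA kidneys, against 7.20, 5.16 and 5.99 FPKM in the WT kidneys. Only TC-11 and TC-12 lay above all WT kidneys. Its means were 7.26 ± 1.55 FPKM in BPS-TA kidneys (SD, n = 4) and 6.12 ± 1.02 FPKM in WT kidneys (SD, n = 3), with a log2 fold change of 0.21 (95% interval -0.16 to 0.57) and an adjusted p of 0.338 by limma. Exons of Slco2b1 overlap those of an antisense gene, Gm15635, over 7.91% of their bases, and no source used here says whether reads were counted by strand.

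**Figure D2:**
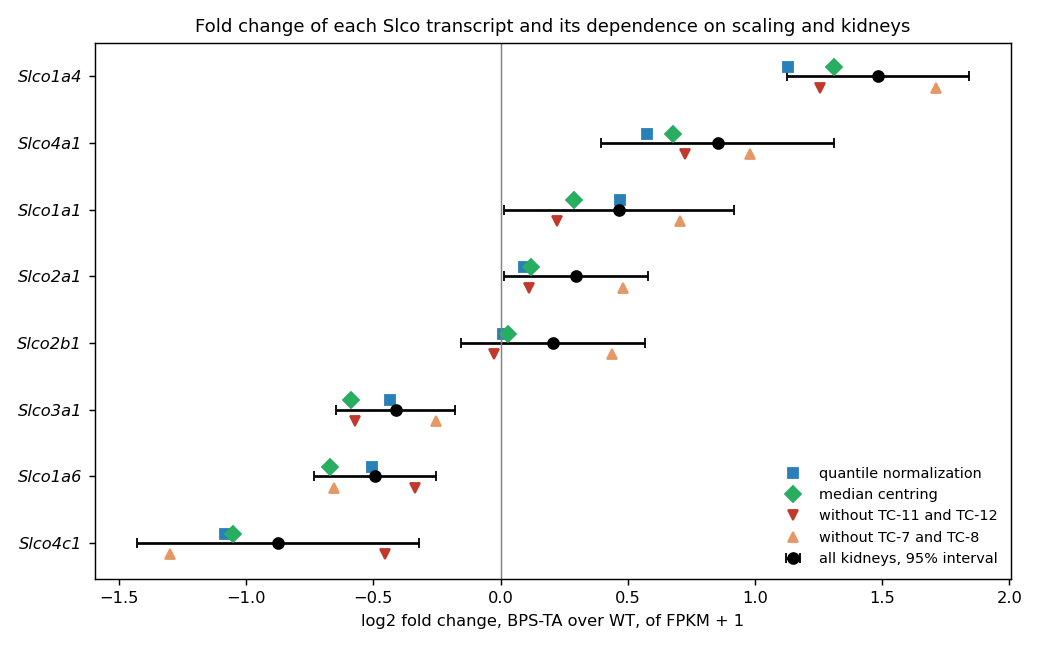
Log2 fold change of FPKM + 1, BPS-TA over WT, for each Slco transcript, with the 95% interval from all kidneys (black) and the estimate after quantile normalization, after median centring, and without a pair of BPS-TA kidneys (coloured). The intervals are not adjusted for the number of genes. Every estimate keeps its side of 0 except that of Slco2b1 without TC-11 and TC-12, at -0.025.

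Within the BPS-TA group, TC-11 and TC-12 differed from TC-7 and TC-8 in most members. TC-11 and TC-12 both exceeded TC-7 and TC-8 for 5 members, and both lay below them for Slco1a6 and Slco4c1. Over all tested genes such pairs were separated in 47.6%, 22.5% with TC-11 and TC-12 above and 25.0% with them below. TC-11 and TC-12 averaged 1.40 times TC-7 and TC-8 for Slco1a1, 1.51 times for Slco1a4, 1.44 times for Slco2b1 and 0.801 times for Slco1a6. For 7 members TC-11 and TC-12 were on average farther than TC-7 and TC-8 from the mean of the WT kidneys, with Slco3a1 the exception. The share of all tested genes with this trait was not counted, so it cannot be called particular to the members. Without TC-7 and TC-8, a choice made after the values were seen, 5 members were called higher, where 27.8% of all tested genes were, with log2 fold changes of 0.71 for Slco1a1 (adjusted p = 0.0387 by limma), 0.48 for Slco2a1 (adjusted p = 0.0097) and 0.44 for Slco2b1 (adjusted p = 0.0442) joining the others. Without TC-11 and TC-12 the calls were those of all kidneys, and the log2 fold change of Slco4c1 was -0.45.

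**Figure D3:**
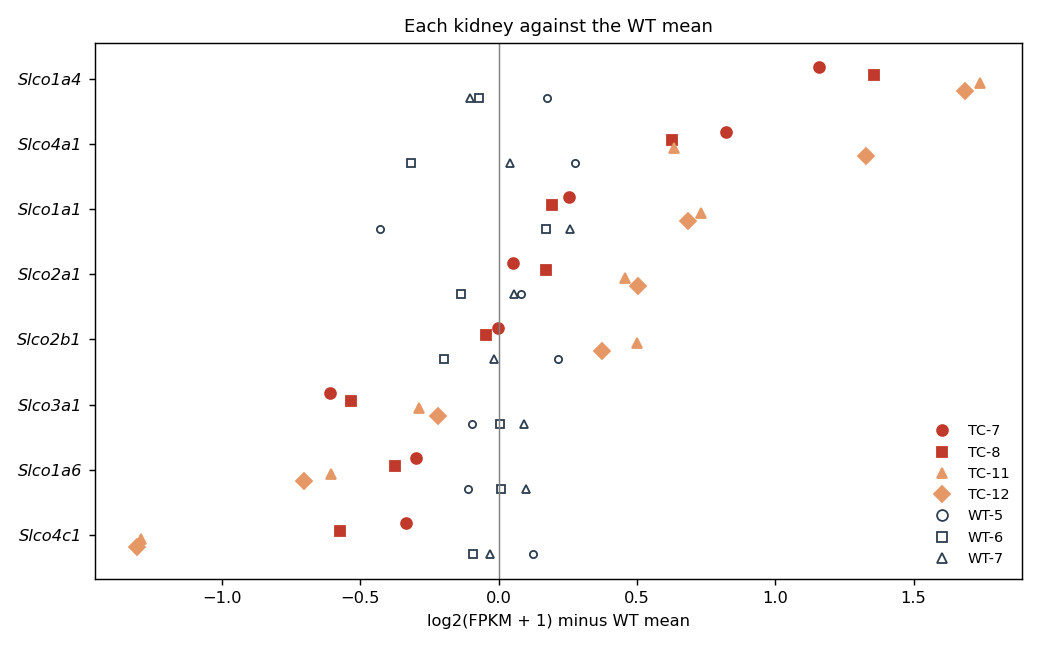
Difference of log2(FPKM + 1) from the WT mean in each kidney, by Slco transcript, with BPS-TA kidneys as filled and WT kidneys as open symbols. TC-11 and TC-12 (light symbols) lie on average farther from the WT mean than TC-7 and TC-8 in every row but that of Slco3a1. How many of all tested genes share this trait was not counted.

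The summed signal of the family overlapped between the groups, with a different make-up. The 8 members together gave 346, 335, 397 and 389 FPKM in the BPS-TA kidneys, against 328, 388 and 414 FPKM in the WT kidneys. The ratio of the mean sums was 0.975. Slco1a1 made up 48.2% ± 5.40 of the sum in BPS-TA kidneys (SD, n = 4) and 34.1% ± 4.69 in WT kidneys (SD, n = 3). Slco1a6 made up 28.8% ± 6.04 in BPS-TA kidneys (SD, n = 4) and 39.1% ± 1.93 in WT kidneys (SD, n = 3). The FPKM ratio of Slco1a1 to Slco1a6 was 1.27, 1.28, 2.20 and 2.28 in the BPS-TA kidneys, against 0.692, 0.968 and 0.966 in the WT kidneys, and Slco1a1 exceeded Slco1a6 in every BPS-TA kidney and in no WT kidney. In FPKM, levels in BPS-TA kidneys ran in the order Slco1a1, Slco1a6, Slco3a1, Slco2a1, Slco2b1, Slco4c1, Slco4a1 and Slco1a4. Neighbours overlapped among kidneys from Slco2a1 downward. In WT kidneys the order was Slco1a6, Slco1a1, Slco3a1, Slco4c1, Slco2b1, Slco2a1, Slco4a1 and Slco1a4, where Slco1a6 overlapped with Slco1a1 and Slco2b1 with Slco2a1. These shares, ratios and orders are descriptions with no test.

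**Figure D4:**
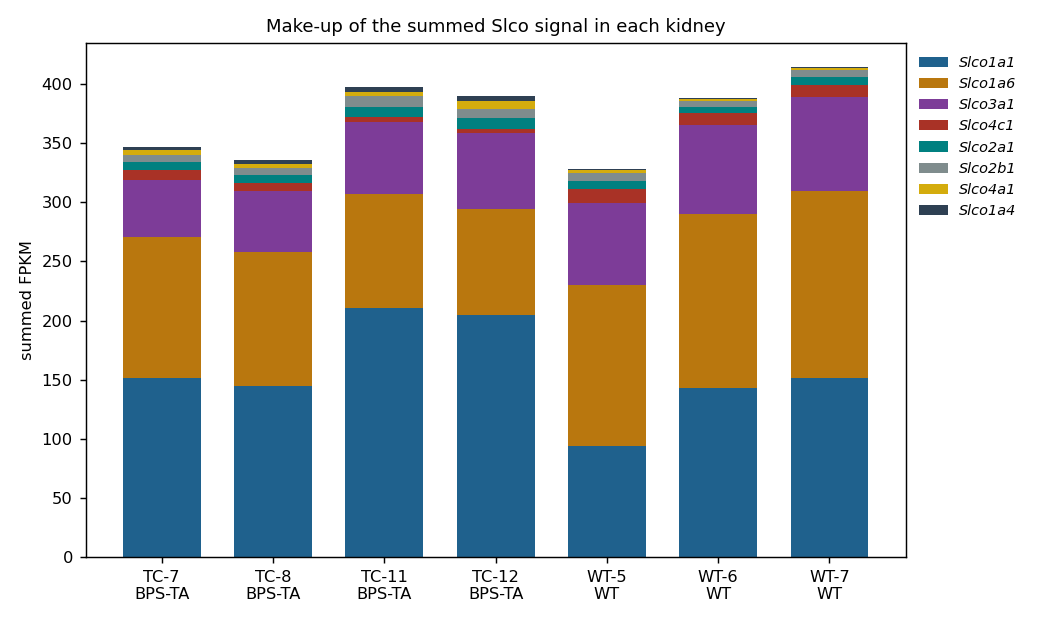
Stacked FPKM of the 8 Slco transcripts in each kidney, BPS-TA kidneys left and WT kidneys right. The sums span 335 to 397 FPKM in BPS-TA kidneys and 328 to 414 FPKM in WT kidneys, and the Slco1a1 block is larger than the Slco1a6 block in each BPS-TA kidney.

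Of 9 further Slco genes looked up by name, 6 had values under those names and none of these 6 reached the filter. Slco1a7, Slco1a8 and Slco6b1 had no value under those names. Gene models of the Slco1a cluster, such as Gm6614, which did reach the filter, were not among the names. Whether such a gene model is one of the Slco genes without a value was not checked, so further Slco genes may have reached the filter. Slco1b2, a liver carrier gene, stood at 0.432, 3.40, 0.361 and 0.302 FPKM in the BPS-TA kidneys, against 0.252, 0.0703 and 0.475 FPKM in the WT kidneys. Apart from TC-8, whose liver transcripts are given above, the groups overlapped. The highest value of Slco1a5, Slco1c1 and Slco5a1 in any kidney was 0.0935 FPKM (Slco1a5 in TC-12), and Slco6c1 and Slco6d1 were listed at 0, which does not show that they are absent.

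Genes that handle the same substrates were examined through lists drawn up with earlier results of these data known. Their counts come from the fit without rescaling, where 28.5% of all tested genes were called higher and 6.56% lower. The lists were not counted again after quantile normalization or median centring. Of 10 tested Slc22 genes 6 were called lower and 1 higher, with a median log2 fold change of -0.21. Slc22a6 (-1.72), Slc22a8 (-1.68) and Slc22a12 (-1.05), carriers of organic anions and urate, had the largest log2 changes. Of 9 tested ABC efflux genes 2 were called higher and 2 lower (median 0.0090), among them Abcb1b (log2 fold change 1.20) and Abcc1 (0.68) higher and Abcc2 (-0.60) lower. Prostaglandin genes had 8 of 14 called higher and 0 lower (median 0.33), with log2 fold changes of 1.17 for the receptor gene Ptger3, 0.95 for the synthase gene Ptgds and 0.84 for the dehydrogenase gene Hpgd. Thyroid hormone genes had 2 called higher and 2 lower of 8 (median 0.059), and the log2 value was 1.89 for the carrier gene Ttr, -1.80 for the deiodinase gene Dio1 and 0.47 for the receptor gene Thra. Genes of steroid sulfate and bile acid handling had 5 called higher and 3 lower of 11 (median 0.13), led by Hsd11b1 (1.46), Slc10a2 (0.58) and Hsd11b2 (0.50). Of 9 genes known to be higher in male mouse kidney 4 were called higher and 4 lower (median -0.064), among them Cyp4b1 (-0.91), Cyp7b1 (0.71) and Slc7a13 (-0.52). Of 3 tested genes known to be higher in female mouse kidney 0 were called higher and 1 lower, the prolactin receptor gene Prlr (-1.68). Abcc3, also in that list, did not reach the filter. It stood at 0.745 to 2.06 FPKM in BPS-TA kidneys and 0.284 to 0.739 FPKM in WT kidneys. Ddx3y, Eif2s3y, Kdm5d and Uty, genes of the Y chromosome, each had over 1 FPKM in every kidney. Of these 4 genes 2 were called higher in BPS-TA kidneys and 0 lower, with log2 fold changes of 0.46 for Kdm5d and 0.30 for Eif2s3y. Ddx3y, not called, stood at 18.7 to 24.3 FPKM in BPS-TA kidneys and 19.5 to 23.6 FPKM in WT kidneys. The paper describes its phenotypic studies as made in male mice.

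Markers of the cell types in cortex also differed between the groups. Their counts too come from the fit without rescaling alone, with 28.5% of all tested genes called higher and 6.56% lower. Some markers, such as Slc22a6, Slc22a8, Slc7a13 and Cyp7b1, are also in the lists above, so the counts are not separate. Of 16 proximal tubule markers 8 were called lower and 1 higher, with a summed level of 6994 to 8458 FPKM in BPS-TA kidneys and 9765 to 10263 FPKM in WT kidneys. Of 12 tested macrophage markers 12 were called higher, and the summed level of the list was 122, 120, 160 and 188 FPKM in the BPS-TA kidneys, against 62.1 to 70.9 FPKM in WT kidneys. One of the 12, Fcgr1, was under 1 FPKM in every WT kidney and passed the filter only through the BPS-TA kidneys. Slco2b1 is also expressed by macrophages. Of 12 endothelial markers 11 were called higher, with a summed level of 356 to 406 FPKM in BPS-TA kidneys and 238 to 288 FPKM in WT kidneys. Endothelium is a known place of Slco2a1 and Slco1a4 transcripts. Of 8 principal cell markers of the collecting duct 6 were called higher and 1, Aqp4, lower, with summed levels of 563 to 705 FPKM in BPS-TA kidneys and 415 to 472 FPKM in WT kidneys. Of 6 markers of the last proximal tubule segment 3 were called higher and 1 lower, of 8 thick limb and distal tubule markers 5 higher and 0 lower, and of 7 tested fibroblast markers 4 higher and 0 lower. No marker of these lists was at 0 in every kidney, whereas Hnf4a, a proximal tubule transcription factor gene held in another list, was listed at 0 in every kidney, and the part of cell composition in the Slco results was not tested.

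Over the 7 kidneys, the tested genes of at least 5 FPKM on average whose log2(FPKM + 1) ran most like that of Slco1a4 were Arg2, H2-Aa and Cd74 (Pearson r of 0.999, 0.998 and 0.996), out of 8628 genes compared, 1217 of which had an r over 0.9. Those most like Slco4c1 were Fam120b, Slc22a23 and Trim63 (r of 0.997, 0.993 and 0.991), with 241 genes over 0.9. The kidneys share their group difference across all these genes, so these values describe likeness alone.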

How the data were processed

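RNA of microdissected kidney cortex was sequenced by the authors as single reads of 51 bases. Values for 4 BPS-TA and 3 WT kidneys were used. The study counts more WT kidneys than these, and the others were not analysed here. One deposited table holds values of protein-coding genes in each kidney. Its unit is not named, and FPKM was inferred from the values that the authors deposited, whose totals differ between kidneys. The submitters' processing notes name mm9 and DESeq 1.32. No source used here names the aligner, the counter or the annotation. Low values did not give back whole reads, so the depth and its precision are unknown. Another table holds the authors' comparison (mean, fold change, standard error, statistic, p-value and adjusted p) and was not used. Columns were assigned to groups by name, WT or TC.

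Of the rows, 83 with 37 repeated identifiers were left out. log2(FPKM + 1) of genes with at least 1 FPKM in at least 3 kidneys was tested two-sided with limma (3.58.1, R 4.3.3; mean-variance trend, Benjamini-Hochberg adjustment, no covariates). Slco1a4 was also given an exact permutation test. The fit was tested on simulated data. Alternatives were quantile normalization, median centring, no trend, no filter, 1 FPKM in every kidney, a pseudocount of 0.1, and each kidney left out. Leaving out pairs of BPS-TA kidneys was added after the data were seen. Named are all members, other Slco genes with a value, up to 3 genes per list with the largest change past the threshold, and the 3 genes most like the members with the largest positive and negative changes. Not every gene or list under this rule is reported here. Members and lists were chosen with earlier results of these data known. The annotation at hand (GRCm38) is of another build than mm9 and served for names, shared 51-base words, exon overlap and promoters. Python 3.11.15 with numpy 2.4.6, pandas 2.3.3 and matplotlib 3.10.9 was used.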

Additional observations from a re-analysis of the deposited data

Results flagged for a closer look

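Slco1b2 stood at 3.40 FPKM in TC-8, far from the other BPS-TA kidneys at 0.302 to 0.432 FPKM. The gap to the nearest kidney made up 0.958 of the range of the group, past the 95% critical value of Dixon's test. Chance passes it in about 1 in 20 groups for a single gene. The members, the other Slco genes and gene models of the cluster were all screened, so a pass somewhere is likelier than that. Genes under 1 FPKM in all BPS-TA kidneys were skipped, and Slco1b2 was screened only through its value in TC-8. Alb, the albumin gene of liver, was 244 FPKM in the same kidney, against 7.58 to 13.8 FPKM in the other BPS-TA kidneys and 8.18 to 30.0 FPKM in WT kidneys. Whether liver RNA has a part in the Slco1b2 value was not tested.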

How the results depend on the processing

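Of 119 member values under alternatives, 106 kept their direction and their side of the threshold, 8 lost their call, 4 gained one and 1 changed sign (Slco2b1, -0.025 without TC-11 and TC-12, adjusted p = 0.907 by limma). All tested genes called higher numbered 3425, against 1416 after quantile normalization, 1515 after median centring, 2226 without TC-11 and TC-12, and 2267 to 3325 with each kidney left out. Genes called lower numbered 790, against 1724, 2480, 462 and 491 to 905 under the same settings. Members called higher numbered 2, against 1 after quantile normalization and 2 to 3 with each kidney left out. They numbered 1 with 1 FPKM required in every kidney, where Slco1a4 is not tested. Without TC-7 and TC-8 they numbered 5, where 27.8% of all tested genes were called higher. Members called lower numbered 3, and 1 to 3 with each kidney left out. Members with BPS-TA kidneys all above numbered 2, where 35% of all tested genes were. They numbered 1 with 1 FPKM required in every kidney and 2 to 3 with each kidney left out. Without TC-7 and TC-8 they numbered 5, where 46.2% of all tested genes lay all above. Members all below numbered 3 throughout, against 1068 of all tested genes, 2705 after quantile normalization and 3273 after median centring. The ratio of summed members, 0.975, was 0.860 after median centring, 0.765 without Slco1a1, and 0.916 to 1.03 with each kidney left out. For Slco1a4 the exact permutation p of 0.0286 became 0.0667 to 0.1 with each kidney left out and 0.1 without either pair of BPS-TA kidneys, the smallest values those splits allow. No paired analysis was possible because the numbers of the value columns match no replicate number of the labels. With 4 against 3 kidneys and unknown read depth, the precision of low transcripts such as Slco1a4 in WT kidneys cannot be given.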
